A study of Mus musculus with 11 samples.

Results

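Tumor-infiltrating regulatory T cells (TI-Tregs) and spleen Tregs of mice that delete Cd177 in Tregs were compared gene by gene. The comparison used 2 tumor and 3 spleen libraries out of the 11 libraries of the series, and no other tumor library of this genotype exists here. Of 14604 listed genes, 13868 were compared, those whose log2(n + 1) averaged 0.5 or more in these 5 libraries, and the other 736 lay under it. Gm15737 lay just inside it, at a mean of 0.5001, and Pcbd1 just outside, at 0.4998. Of the genes left out, 132 had a mean of at least 0.5 in tumor and 129 in spleen.

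Mice labelled CD177flox/flox/FOXP3-CreYFP carry a floxed Cd177 gene and a Cre recombinase with a yellow fluorescent protein under control of Foxp3, so that the deletion is expected in cells that express Foxp3. The 6 control libraries, 3 from each tissue, came from mice labelled CD177flox/flox. These mice have the same floxed gene and no Cre, so the genotypes differ in the Foxp3-CreYFP allele as well as in the deletion. All mice bore grafts of MC38, a mouse colon adenocarcinoma line, and per the study's methods spleens and tumors were taken from the same mice, but the labels do not say which libraries share a mouse. Age is not given in the labels. Live CD4+ cells positive for GITR (encoded by Tnfrsf18) and CD25 (encoded by Il2ra) were sorted, ribosomal RNA was depleted and the rest was sequenced. Cd177 has no value here, so the deletion could not be checked from these data.

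Tregs are CD4+ T cells that restrain other immune cells, and they are defined by the transcription factor Foxp3. They take up interleukin 2 through CD25, engage inhibitory receptors such as CTLA-4, and release inhibitory cytokines such as IL-10. Resting Tregs circulate through spleen and lymph nodes, while activated ones in tissues and tumors carry more receptors of the TNF receptor family. CD177 is a surface glycoprotein best known from neutrophils.

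The values are log2(n + 1), where n is an estimated count per gene of unstated scaling, so a difference of 1 stands for a 2-fold change of n + 1 and understates the change of genes near 0. The total of n was 712831 to 790299 in the spleen libraries and 1181894 to 1193922 in the tumor libraries, and the depth in reads is unknown. A processed pseudogene of 226 bases, Gm12896 (chromosome 4, 122122847 to 122123072, plus strand, GRCm38), held 31.4% to 39.0% of these totals. The median distance between the tumor libraries was 0.258 per gene, against 0.137 to 0.144 for pairs of spleen libraries. Spleen knockout replicate 2 was the highest spleen library for 15 of 18 myeloid genes, 9 of 10 genes of CD8 T and NK cells and 7 of 7 B cell genes. Of all 13868 tested genes it was the highest for 4335. Tumor knockout replicate 1 was above replicate 2 for 20 of 20 T cell lineage genes, by a median of 0.61, against 6279 of all 13868 tested genes. The gene values of other cells cannot show whether a type was present in fewer cells or with less RNA per cell.

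Between tumor and spleen, 8835 of 13868 genes (63.7%) passed an adjusted p of 0.05 in limma. Of the tested genes, 4895 (35.3%) were called higher and 3940 (28.4%) lower in tumor, and the median difference of all tested genes was 0.07. Rises were the larger changes, since 492 called genes were at least 3 log2 units higher and 33 at least 3 lower. The libraries of the 2 tissues did not overlap for 10769 genes (77.7%), and 1935 of these were not called. An exact permutation test of 2 against 3 libraries cannot go below a two-sided p of 0.2, so calls rest on limma, which borrows the spread across genes. For 1415 genes (10.2%) the 95% interval of the difference lay within 0.5 of zero on either side. The split between higher and lower depended on the scaling, with 55.4% of calls higher as deposited, 44.0% after median centring, 41.9% after quantile normalization and 27.7% with equal library totals. With each library centred on the CD3 chain genes it was 87.9%. The counts of calls in the gene lists below are to be read against the shares of all tested genes. As deposited these were 35.3% higher and 28.4% lower, and with equal totals 2650 genes were called higher and 6933 lower of 13868.

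**Figure D1:**
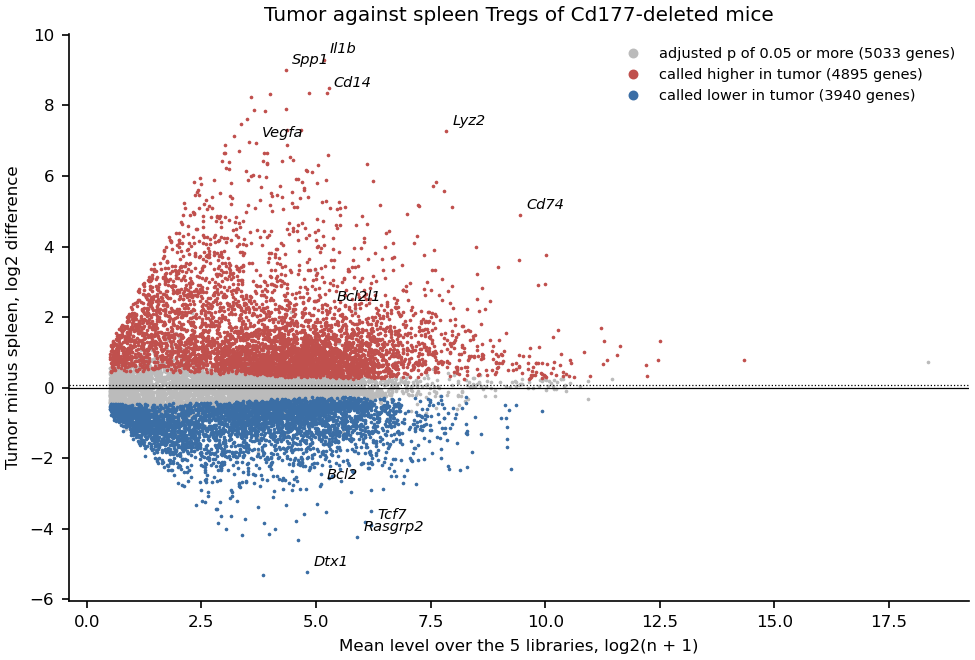
Tumor minus spleen difference of log2(n + 1) against the mean level over the 5 libraries, 1 point for each of 13868 genes, with called genes in color. The dotted line is the median of all genes, 0.07, and the cloud reaches 9.30 for Il1b at the top and -5.31 at the bottom.

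Of the genes that encode the sort markers, Tnfrsf18 was called higher, Cd4 lower and Il2ra was not called, and Foxp3 was not called either. Foxp3 (chromosome X, 7573644 to 7595245, plus strand, overlapped there by Flicr on the same strand) had 6.23, 6.67 and 5.98 in the spleen libraries and 5.87 and 6.12 in the tumor libraries. The tissues overlapped, and the difference was -0.30 (standard error 0.20, adjusted p = 0.24). Without spleen knockout replicate 2, the library with the highest Foxp3 level, the difference was -0.11. Relative to the CD3 chain genes it was 0.36, while equal library totals gave -0.93 and a call as lower (adjusted p = 0.0096). Il2ra, the interleukin 2 receptor alpha chain, had 7.46, 7.32 and 7.07 in spleen and 7.51 and 7.15 in tumor, a difference of 0.05 (standard error 0.16), which turned to -0.59 with equal totals.

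Of the 10 genes on that list, 2 were called higher, 2 lower and 6 were not called, with a median difference of -0.26. The counts depended on the scaling, with 1 higher and 8 lower (median -0.89) with equal totals and 1 higher and 6 lower (-0.63) after quantile normalization. Relative to the CD3 chains 4 were called higher and none lower (0.40). The median of all tested genes was 0.07 as deposited, -0.46 with equal totals, -0.15 after quantile normalization and 0.73 relative to the CD3 chains. The list median lay below it each time, and relative to the CD3 chains 7589 of all 13868 genes were called higher. Without tumor replicate 1 the list had 1 higher and 5 lower (-0.38), and without tumor replicate 2 the median was 0.08. Tnfrsf18, which encodes the sort marker GITR, rose from 6.48, 6.41 and 6.30 to 7.85 and 7.34 (difference 1.20, standard error 0.16, adjusted p = 8.1e-04). Ctla4, an inhibitory receptor, was called higher at 0.53 (standard error 0.18, adjusted p = 0.042) as deposited but was at -0.11 with equal totals, and the call was lost without any 1 of the spleen libraries or without tumor knockout replicate 1 (0.23). Cd4 (-0.49) and Ikzf2 (-0.68), which encodes the Treg transcription factor Helios, were called lower as deposited. Relative to the CD3 chain genes Cd4 was at 0.17 and Ikzf2 at -0.02. Ikzf4, Il2rb, Lrrc32 and Nrp1 were not called, at -0.38, -0.23, -0.28 and 0.11, and Ikzf4, Il2rb and Lrrc32 were called lower without tumor knockout replicate 1.

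**Figure D2:**
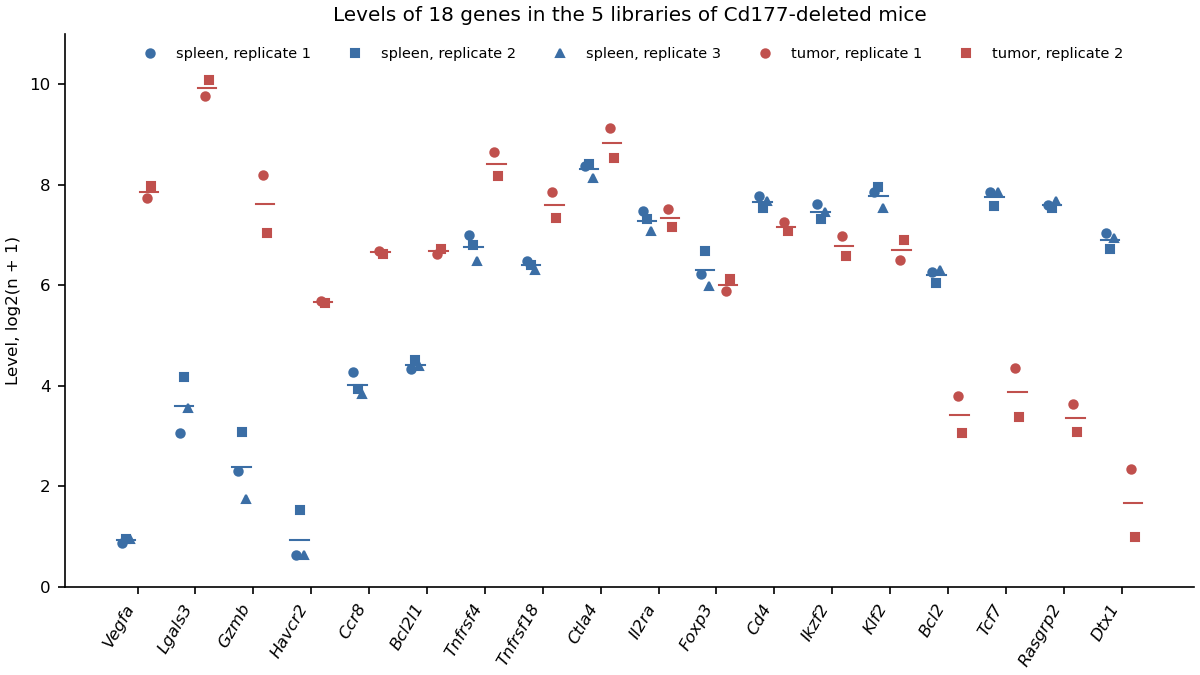
Level of 18 genes as log2(n + 1) in each of the 5 libraries, with spleen in blue, tumor in red, a marker shape for each replicate and a line for each group mean. Vegfa, Lgals3 and Gzmb lie far apart between tissues with tumor above, Il2ra and Foxp3 overlap, and Tcf7, Rasgrp2 and Dtx1 lie far apart with spleen above.

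Genes that make a T cell fell in tumor as deposited. Of 20 T cell lineage genes, 16 were called lower and none higher, with a median difference of -0.85. With equal totals 19 were called lower (median -1.48), and relative to the CD3 chains, which are on the list, 9 were called lower and 2 higher (median -0.19). The summed level of the list was 12.26 to 12.35 in the spleen libraries and 11.67 and 11.04 in tumor replicates 1 and 2. Skap1, an adaptor of T cell receptor signalling, went from 7.55, 7.38 and 7.55 to 5.84 and 5.11 (difference -2.02, standard error 0.21). Trac, the constant part of the T cell receptor alpha chain, had 9.55, 9.41 and 9.47 in spleen and 9.11 and 8.56 in tumor, a fall of -0.64 that came to 0.02 relative to the CD3 chains. Trbc2 (-1.68) and Bcl11b (-1.78), a transcription factor of T cell commitment, were lower under every scaling tried. The median of the list was -1.26 without tumor replicate 1 and -0.53 without tumor replicate 2.

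Markers of other cells moved with the tissue in these libraries, and their part in the results was not tested. All 18 myeloid genes rose, with a median of 4.88, and the summed level of the list was 8.93 to 9.88 in spleen and 14.33 to 14.51 in tumor. Lyz2, which encodes lysozyme, had 3.83, 6.87 and 4.07 in spleen and 12.24 and 12.16 in tumor. Col3a1, a collagen of fibroblasts, had 0.18, 0.36 and 0.29 in spleen and 7.93 and 9.13 in tumor. Tumor libraries lay above all spleen libraries for both genes, as for 5809 of all 13868 tested genes. The spleen level of Lyz2 was raised in replicate 2 alone.

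Other marker lists of the sort were read the same way. Of 7 fibroblast genes tested, 6 rose (median 5.51, summed level 2.36 to 2.50 in spleen and 9.30 to 10.11 in tumor), while Pdgfra, Dcn and Lum have no value here. Among 10 genes of CD8 T and NK cells, 6 rose and 1 fell (median 1.69, summed level 5.64 to 6.39 in spleen and 7.23 to 8.34 in tumor). All 10 were higher in tumor replicate 1 than in replicate 2, and the list had 4 called higher and 2 lower (median 0.97) without replicate 1 and 7 higher and 1 lower (median 2.36) without replicate 2. B cell genes were low in both tissues, with 1 of 7 called lower, a summed level of 3.99 to 5.95 in spleen and 3.37 to 4.43 in tumor, and no value for Pax5. Their median of -0.60 was -1.06 without tumor replicate 1, -0.14 without tumor replicate 2 and -0.20 without spleen replicate 2. For dendritic cells 2 of 6 genes rose, near the 35.3% of all tested genes. The summed level of that list was 3.24 to 4.30 in spleen and 6.15 to 6.31 in tumor. In tumor most of it came from Itgax, at 5.85 and 5.90, and 4 of the 6 genes were not called. Of the neutrophil list only Csf3r (2.34) and Cxcr2 (-1.74) were tested, and S100a8, S100a9, Retnlg and Ly6g have no value. Of the epithelial list Cdh1 rose by 3.44 while Epcam, Lgals4 and Vil1 were not called, and Krt8, Krt19, Krt20 and Cdx2 have no value. The endothelial list split into 2 called higher and 2 lower, with Eng at 3.25 and Pecam1 at -1.86.

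**Figure D3:**
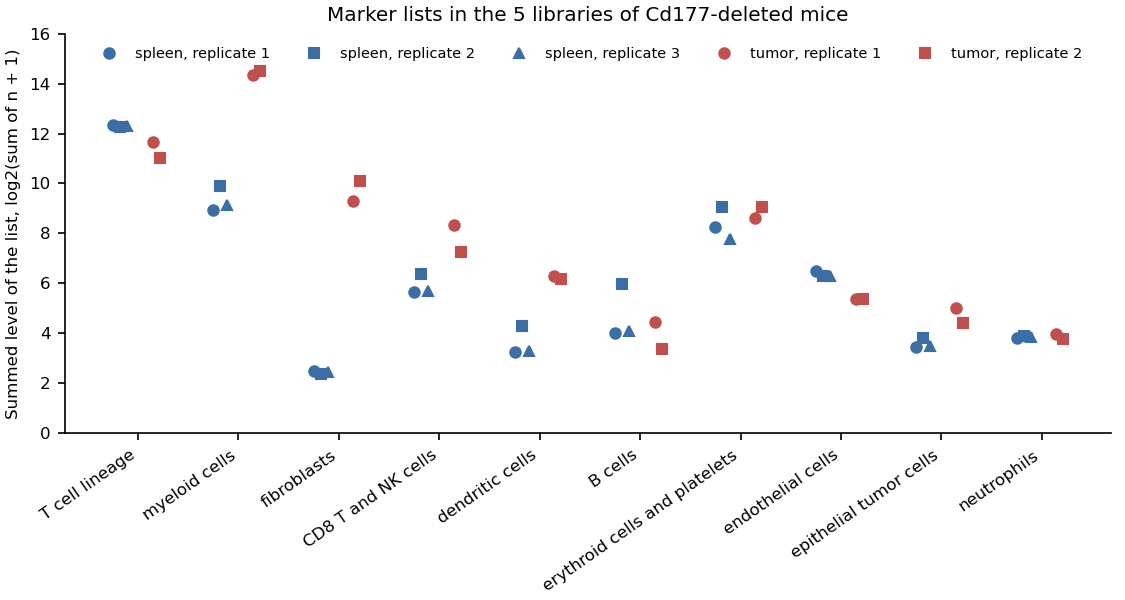
Summed level of 10 marker lists, log2 of the summed n + 1, in each library of the Cd177-deleted mice. Tumor libraries lie above spleen libraries for myeloid cells (14.33 to 14.51 against 8.93 to 9.88) and fibroblasts, and below them for T cell lineage genes, where tumor replicate 2 is the lowest.

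The 10 largest rises among called genes without overlap were those of Il1b, Spp1, Cxcl2, Arg1, Cd14, Ptgs2, Col3a1, Fcgr2b, Il1a and Il1rn. They ranged from 7.84 to 9.30, and most of them are known from myeloid cells. Il1b, the cytokine IL-1 beta, had 0.46, 2.68 and 1.21 in spleen and 10.62 and 10.87 in tumor (difference 9.30, standard error 0.58). Spp1, which encodes osteopontin, had 0.73, 0.85 and 0.65 in spleen and 9.80 and 9.69 in tumor (difference 9.0, standard error 0.12). Arg1, the arginine-degrading arginase, had 1.41, 1.36 and 1.78 in spleen and 10.19 and 9.55 in tumor. For each of these genes the libraries of a tissue lay far closer to each other than to those of the other tissue. The rule that picked the genes favors such a separation.

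Among genes that already had a mean of at least 4 in spleen, the largest rises were Lyz2 (7.28), the MHC class II genes H2-Eb1 (5.83), H2-Ab1 (5.73) and H2-Aa (5.58), the complement genes C1qa, C1qb and C1qc (5.17, 5.14 and 4.91), the protease gene Lgmn (5.17), the lipid carrier Apoe (5.13) and Cd74 (4.89), the MHC class II chaperone. In spleen knockout replicate 2 the class II genes were well above the other spleen libraries, with H2-Aa at 6.80 against 4.74 and 5.12. All of these were called without that library too.

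The largest falls were Gm4956 (-5.31), Dtx1 (-5.23), Nsg2 (-4.33), Rasgrp2 (-4.24), Gpr83 (-4.18), Aff3 (-4.14), Gm17072 (-4.01), Art2b (-4.0), Tcf7 (-3.89) and Trbv12-1 (-3.83). Dtx1, the Notch pathway regulator Deltex (chromosome 5, 120680202 to 120711927, minus strand), had 7.04, 6.72 and 6.93 in spleen and 2.35 and 0.98 in tumor (standard error of the difference 0.37, adjusted p = 7.6e-05). Gpr83, an orphan receptor known from Tregs, had 5.23, 5.32 and 4.64 in spleen and 1.16 and 0.60 in tumor. Art2b, an ADP-ribosyltransferase of the T cell surface, had 5.71, 5.77 and 5.62 in spleen and 1.79 and 1.60 in tumor. Tumor replicate 2 was below replicate 1 for each of these 3 genes. Both were below every spleen library, as the rule that picked the genes requires. Gm4956 and Gm17072 are annotated as pseudogenes, so reads may be shared with related genes.

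Falls that left a mean of at least 4 in tumor were led by Ift80 (-3.50), Dennd2d (-2.95), Prkcq (-2.90), Dgka (-2.72), Ssbp2 (-2.50), S1pr1 and Foxp1 (both -2.37), Ipcef1 (-2.36) and Ms4a4b (-2.31). Prkcq encodes protein kinase C theta, which acts below the T cell receptor, and Dgka a diacylglycerol kinase that restrains it. Prkcq had 7.35, 7.25 and 7.45 in spleen and 4.93 and 3.97 in tumor. Ipcef1 had nearly the same level in both tumor libraries (4.36 and 4.37), whereas Ms4a4b had 7.31 and 5.74.

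Genes of quiescence and of homing to lymphoid organs fell as a list. Of 19, 16 were called lower, 2 higher and 1 was not called, with a median of -2.04, and the median stayed below zero under each scaling (-1.38 relative to the CD3 chains, -2.65 with equal totals). Tcf7, which encodes the transcription factor TCF-1 of resting T cells, had 7.85, 7.58 and 7.85 in spleen and 4.36 and 3.37 in tumor (difference -3.89, standard error 0.27, adjusted p = 7.5e-05). Rasgrp2, an activator of Rap1 in adhesion, had 7.59, 7.53 and 7.68 in spleen and 3.63 and 3.08 in tumor (difference -4.24, standard error 0.17). In both genes the gap between tissues was several times the spread within them, which their choice as the largest called differences of the list favors.

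The 2 members with the highest mean over the 5 libraries changed less than Tcf7 and Rasgrp2. A high mean over both tissues favors genes that fell little, and Dgka, high in spleen and on the same list, was at -2.72. Klf2, a factor that sustains S1pr1, fell by 1.08, and Txnip, a brake on glucose uptake, fell by 0.85 and lost its call without spleen replicate 3 (-0.87) or without either tumor replicate (-0.89 and -0.80). Ly6c1 and Ccr7 were the 2 members called higher. Ccr7, the receptor that guides T cells to lymph nodes, was at 0.54 (adjusted p = 0.035) as deposited, at -0.09 with equal totals, and lost its call without tumor replicate 1 (0.23) and without any 1 of the spleen libraries. Il7r was not called, at -0.03. Of the GIMAP genes, small GTPases of lymphocytes, 7 of 8 were called lower with a median of -1.14, Gimap6 most (8.64, 8.55 and 8.36 in spleen and 6.81 and 6.23 in tumor), while Gimap4 fell by 0.57 as deposited and was at 0.09 relative to the CD3 chains.

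Receptors and regulators of activation rose. Of 22 genes, 18 were called higher, 2 lower and 2 were not called, and the median was 2.07 (1.44 with equal totals). Tnfrsf4, which encodes OX40, had 7.0, 6.80 and 6.47 in spleen and 8.65 and 8.17 in tumor (difference 1.65, standard error 0.20, adjusted p = 5.4e-04). Havcr2, the inhibitory receptor TIM-3, had 0.63, 1.53 and 0.62 in spleen and 5.69 and 5.63 in tumor (difference 4.73, standard error 0.30). Il1r2, a decoy receptor for IL-1, had 4.08, 2.71 and 2.92 in spleen and 6.95 and 6.49 in tumor (difference 3.48, standard error 0.40). Tumor and spleen did not overlap for these genes, which also held for 77.7% of all tested genes. Havcr2 and Il1r2 each had 1 spleen library above the other 2, replicate 2 and replicate 1 respectively.

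Other members of the list rose as well, among them Tnfrsf9 (3.47), Ccr8 (2.64), Icos (2.29), Pdcd1 (2.09) and Tigit (2.05). These 5 belong to the list and were picked for the text after their values were seen. Tox (-1.79) and Nfatc1 (-0.85), transcription factors that act after receptor stimulation, were called lower, and Batf (0.41) and Irf4 (0.30) were not called. Havcr2 is also expressed by myeloid cells, whose markers rose in the same libraries. Which cells gave the rises of this list was not tested.

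Suppressive and effector molecules rose for 11 of 13 genes tested, with a median of 2.78, while Nt5e was called lower (-0.48), Lrrc32 was not called and Il12a has no value here. Gzmb, the protease granzyme B, had 2.31, 3.08 and 1.74 in spleen and 8.20 and 7.04 in tumor (difference 5.25, standard error 0.46, adjusted p = 1.6e-04). Lgals3, which encodes galectin-3, had 3.05, 4.17 and 3.55 in spleen and 9.76 and 10.07 in tumor (difference 6.33, standard error 0.30). Lgals1 had 5.69, 6.02 and 5.83 in spleen and 9.31 and 9.89 in tumor (difference 3.76). Gzmb was higher in tumor replicate 1, and the galectins were higher in replicate 2. Tgfb1, the inhibitory cytokine TGF-beta 1, rose by 1.3 (standard error 0.09). Il10 rose by 3.29 and Entpd1, the ectonucleotidase CD39, by 2.02, and both were picked after their values were seen. In the same tumor libraries the myeloid list summed to 14.33 and 14.51 and the T cell lineage list to 11.67 and 11.04. Which cells gave the rises of suppressive and effector genes was not tested.

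Chemokine receptors divided. Of 16, 8 were called higher, 4 lower and 4 were not called, and the median of 0.40 turned to -0.12 with equal totals, where 5 were called higher and 6 lower. Tumor replicate 1 was above replicate 2 for 15 of the 16 genes, and the list had 6 higher and 5 lower (median 0.12) without replicate 1 and 9 higher and 4 lower (median 0.70) without replicate 2. Ccr1, a receptor of inflamed tissue and of myeloid cells, had 0.15, 0.76 and 0.22 in spleen and 6.96 and 6.63 in tumor (difference 6.41, standard error 0.23). Cx3cr1, the fractalkine receptor, rose by 4.20 (standard error 0.28), and Cxcr4 by 1.45 (standard error 0.33). The 4 called lower were Cxcr5 (-2.80), Ccr9 (-2.18), Ccr3 (-1.23) and Ccr10 (-0.48). Cxcr3, Ccr4, Ccr6 and Xcr1 were not called.

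In the BCL-2 family, which sets the threshold of cell death, 15 of 24 genes tested were called higher, 2 lower and 7 were not called, with a median of 1.11 (0.54 with equal totals, where 11 were called higher and 6 lower). Bcl2l1, which encodes the survival protein BCL-XL, had 4.33, 4.51 and 4.38 in spleen and 6.63 and 6.72 in tumor (difference 2.27, standard error 0.11, adjusted p = 2.1e-05). Bcl2, its relative BCL-2, had 6.26, 6.04 and 6.30 in spleen and 3.79 and 3.05 in tumor (difference -2.78, standard error 0.22, adjusted p = 1.2e-04). Neither gene overlapped between tissues, which also held for 77.7% of all tested genes. Their directions were opposite under each scaling. Mcl1 rose by 1.14 (standard error 0.11). Bnip3, a hypoxia-induced member of mitophagy, rose by 5.56, and Bcl2a1a (4.72) and Bcl2a1b (3.65), near-identical paralogs that may share reads, rose together. The second gene called lower was Bbc3 (-0.48), which encodes the death-promoting protein PUMA. Bcl2l10 and Hrk have no value here, and 1 member fell under the level filter.

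Glycolysis and the response to low oxygen moved almost as 1 block. Of 33 genes tested, 31 were called higher, none lower and 2 were not called (Slc2a3 at -0.57 and Pdk1 at -0.02), and Adm has no value. The median was 2.46, and it ranged from 1.82 with equal totals to 3.12 relative to the CD3 chains. Vegfa, the angiogenic growth factor (chromosome 17, 46016993 to 46032369, minus strand), had 0.87, 0.94 and 0.94 in spleen and 7.74 and 7.96 in tumor (difference 6.93, standard error 0.14, adjusted p = 2.4e-06). Bnip3 had 2.27, 2.61 and 1.90 in spleen and 7.53 and 8.09 in tumor. Gapdh, a glycolytic enzyme often used as a reference gene, had 8.85, 8.60 and 8.59 in spleen and 11.40 and 11.76 in tumor (difference 2.90, standard error 0.15). Eno1, the enolase, rose by 2.46 (standard error 0.15). Tumor replicate 2 was above replicate 1 for 28 of the 33 genes, by a median of 0.36, against 7588 of all 13868 tested genes. It was also above for 16 of 18 myeloid genes and 30 of 31 cell cycle genes.

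Hypoxia-inducible factors bind DNA at a short core, and the promoters of this list are shown because its genes moved together. The letters ACGTG were searched on both strands (read as CACGT on the other) in the RefSeq promoters on GRCm38, each running from 250 bases before to 50 after a gene's start, and a palindromic CACGTG counts once on each strand. Of 30 genes of the list with a promoter in that table, 22 (73.3%) held the letters in at least 1 promoter, against 28.7% of the 10338 tested genes with a promoter. Counted by promoter, it was 25 of 43 (58.1%) against 19.6% of all 32851. That background is wider, with genes not tested here, and counted by gene its share was 21.8%. A match describes letters, not a bound site. The share describes the genes put on the list, does not draw on their levels in these libraries, and was not tested. Promoters of 3 named members are given 5′ to 3′ on the gene's strand, with the matched letters in capitals. That of Bnip3 (chr7:138909457-138909756, minus strand) holds 2 matches in 1 palindrome, that of Gapdh (chr6:125165724-125166023, minus strand) holds 1, and that of the inner start of Vegfa (chr17:46025114-46025413, minus strand) holds 1, while the promoter of the outer start of Vegfa and the 3 of Eno1 hold none.
Bnip3: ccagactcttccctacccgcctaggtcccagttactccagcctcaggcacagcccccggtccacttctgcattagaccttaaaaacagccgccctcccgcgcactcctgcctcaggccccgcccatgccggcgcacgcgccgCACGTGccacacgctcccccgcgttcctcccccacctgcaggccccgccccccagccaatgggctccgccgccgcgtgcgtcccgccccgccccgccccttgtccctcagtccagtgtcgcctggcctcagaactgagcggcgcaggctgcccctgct
Gapdh: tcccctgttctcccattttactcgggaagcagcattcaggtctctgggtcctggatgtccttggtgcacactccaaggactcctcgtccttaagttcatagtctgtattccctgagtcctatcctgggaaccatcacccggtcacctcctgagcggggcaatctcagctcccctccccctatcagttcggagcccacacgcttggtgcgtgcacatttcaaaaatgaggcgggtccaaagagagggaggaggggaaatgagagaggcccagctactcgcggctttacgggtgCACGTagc
Vegfa: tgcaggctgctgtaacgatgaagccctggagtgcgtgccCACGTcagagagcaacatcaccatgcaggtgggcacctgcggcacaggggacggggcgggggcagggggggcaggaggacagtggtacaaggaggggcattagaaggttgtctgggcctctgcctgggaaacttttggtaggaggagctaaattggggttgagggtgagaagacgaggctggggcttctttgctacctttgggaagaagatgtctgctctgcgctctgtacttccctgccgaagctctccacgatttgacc

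Respiratory chain genes rose less. Of 24, 21 were called higher, 1 lower and 2 were not called, with a median of 0.90 that fell to 0.27 with equal totals, where 11 were called higher and 2 lower. Cox5a, a subunit of cytochrome c oxidase, had 5.81, 5.92 and 5.86 in spleen and 7.49 and 7.48 in tumor (difference 1.62, standard error 0.09). Ndufb8, of complex I, rose by 1.59. Atp5b and Atp5a1, subunits of ATP synthase, rose by 0.83 and 0.68 as deposited, and Atp5a1 was at -0.10 after quantile normalization. Ndufs1 was the member called lower, at -0.51.

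Cytosolic ribosomal protein genes gave no direction that held across scalings. Their median was 0.23 as deposited, -0.41 with equal totals and after quantile normalization, and 0.89 relative to the CD3 chains. As deposited 10 of 32 were called higher, near the 35.3% of all tested genes, 1 lower and 21 were not called. Rpl10 rose by 0.80 as deposited but was at -0.03 after quantile normalization, Rplp0 was called at 0.31 with all 5 libraries and in none of the fits that left 1 out, and Rplp1 was not called (0.19). Rpl5 was the member called lower (-0.72).

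Cell cycle and replication genes rose for 24 of 31, with 7 not called and a median of 0.94 (0.32 with equal totals, where 12 were called higher and 2 lower). Cdk1, the mitotic kinase, had 3.42, 3.29 and 3.79 in spleen and 5.42 and 5.96 in tumor (difference 2.19, standard error 0.22, adjusted p = 2.5e-04). Top2a, a topoisomerase of dividing cells, had 5.54, 5.25 and 5.69 in spleen and 6.39 and 6.99 in tumor (difference 1.19). E2f1 rose by 1.82, and Pcna was not called, at 0.25 as deposited and -0.39 with equal totals. Tumor replicate 2 was above replicate 1 for 30 of the 31 genes, by a median of 0.54, and 19 were called higher without it against 28 without replicate 1.

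**Figure D4:**
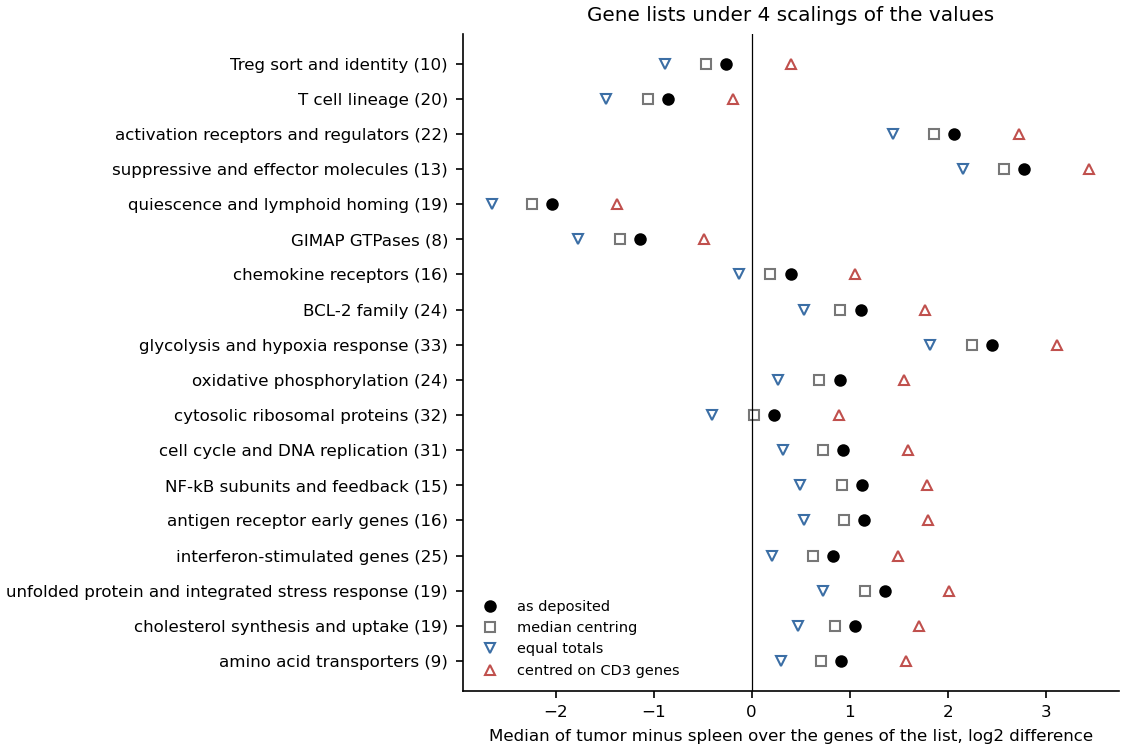
Median tumor minus spleen difference over the genes of each list (number tested in parentheses) as deposited and under 3 other scalings. The medians of glycolysis and hypoxia, activation and suppressive genes stay above zero and those of quiescence and GIMAP genes below it, while Treg identity, chemokine receptor and ribosomal protein genes cross zero.

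Signalling lists had more genes called higher than lower, by margins that depended on the scaling. NF-kB subunits and feedback genes were called higher for 9 of 15 and lower for 1, with a median of 1.13, and with equal totals for 8 and 6 (median 0.50). Nfkbia, the inhibitor induced by NF-kB, had 7.72, 7.71 and 7.59 in spleen and 9.81 and 9.90 in tumor (difference 2.18, standard error 0.09), and Icam1, an adhesion molecule, rose by 2.23. Tnfaip3, which encodes the feedback enzyme A20, was not called, at 0.06. Early genes of the antigen receptor were called higher for 11 of 16 and lower for none, with a median of 1.14, and with equal totals for 7 and 2 (median 0.53). Fosl2, an AP-1 factor, had 3.01, 3.16 and 3.13 in spleen and 7.98 and 7.81 in tumor (difference 4.79, standard error 0.11), and Egr2 rose by 3.26 (standard error 0.16). Junb rose by 0.71. Fos rose by 1.36 with spleen replicate 1 at 9.21 against 8.08 and 8.04, and it lost its call without tumor replicate 2 (1.12).

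Interferon-stimulated genes were called higher for 17 of 25 and lower for 3, with a median of 0.83 (0.20 with equal totals, where 12 were called higher and 6 lower). Rsad2, the antiviral protein viperin, had 1.49, 1.44 and 1.69 in spleen and 5.20 and 4.96 in tumor (difference 3.54, standard error 0.17), and Oasl1 rose by 3.13. Gbp2, a guanylate-binding protein, rose by 2.51. Ddx58 (-1.3), Usp18 (-0.60) and Irf9 (-0.55) were the members called lower.

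In the lists of stress and supply most members were called higher as deposited, and fewer with equal totals. Of 19 genes of the unfolded protein and integrated stress response, 16 were called higher and none lower, with a median of 1.36, against 11 and 3 with equal totals (median 0.73). Atf3, a stress-induced factor, had 2.06, 3.23 and 1.51 in spleen and 7.38 and 7.27 in tumor (difference 5.06, standard error 0.46). Calr (1.36) and Hspa5 (0.94), chaperones of the endoplasmic reticulum, rose, as did Asns (2.91), the asparagine synthetase. Cholesterol synthesis and uptake genes were called higher for 17 of 19 and lower for none, with a median of 1.05, against 9 and 1 with equal totals (median 0.47). Hmgcs1, an early enzyme of the pathway, had 4.01, 4.09 and 3.91 in spleen and 6.0 and 6.22 in tumor (difference 2.11, standard error 0.12), and Fdps (1.87) also rose. Srebf2 rose by 0.42 as deposited and was at -0.21 with equal totals. Of 9 amino acid transporters 7 were called higher and 1 lower, with a median of 0.91, against 4 and 2 with equal totals (median 0.30). Slc6a6, the taurine transporter, rose by 2.19 and Slc3a2, the shared heavy chain of several transporters, by 1.69, while Slc1a5 was lower as deposited (-0.42), at 0.24 relative to the CD3 chains, and lost its call without any 1 of the spleen libraries or without tumor replicate 2.

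Whether the tissue difference departed from that of control mice was tested gene by gene as the difference of the 2 differences, in a limma fit over all 11 libraries. No gene passed an adjusted p of 0.05 (0.0%), 382 genes (2.76%) had an unadjusted p under 0.05, and the smallest adjusted p was 0.19. The median standard error of this difference was 0.233. For 77.6% of genes its 95% interval lay within 1 log2 unit of zero on either side. No library is shared between the genotypes, and across the 13868 genes the differences had a Pearson r of 0.976 and a Spearman rho of 0.966, where genes are not independent replicates. Of the 8835 genes called in Cd177-deleted mice, 8134 (92.1%) were called in the same direction in control mice. Control mice had 9538 calls among all 13868 genes, and the shared calls are 85.3% of these. The 92.1% is to be read against that number of calls. Only 2 genes were called in opposite directions.

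**Figure D5:**
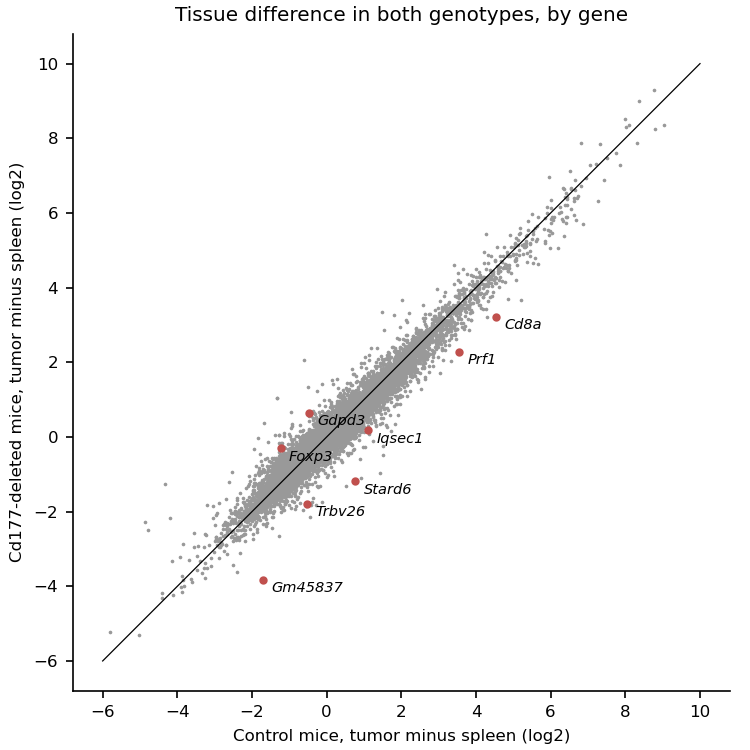
Tumor minus spleen difference (log2) in Cd177-deleted mice against that in control mice, 1 point per gene, with the line of equality. The points follow the line (Pearson r of 0.976 across genes), and the labelled genes lie off it without passing the adjusted threshold.

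The 5 genes with the smallest p of that test were Gm45837, Stard6, Iqsec1, Trbv26 and Gdpd3. Gm45837 had 4.45, 4.32 and 4.41 in spleen and 0.56 and 0.58 in tumor, a fall of -3.82 against -1.71 in control mice (difference between genotypes -2.11, adjusted p = 0.19). On chromosome 7 it overlaps Arap1 and Pde2a, both annotated in its own direction, so reads may be shared with them, and it passed the threshold with a pseudocount of 0.1 and without spleen wild-type replicate 2. Stard6 fell by 1.19 and was 0.76 higher in tumor of control mice. Iqsec1 was at 0.18 against 1.12 in control mice, and Gdpd3 at 0.65 against -0.47. Trbv26, a variable segment of the T cell receptor, was at -1.79 against -0.52.

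For genes central to Tregs, the values of both genotypes stand side by side. Foxp3 was at -0.30 in Cd177-deleted and -1.23 in control mice, a difference of 0.94 (standard error 0.35, adjusted p = 0.9997). Ikzf2 was at -0.68 against -1.36, Il2ra at 0.05 against -0.47, and Bcl2l1 at 2.27 in both. None of these departures between genotypes passed the test. In the list of CD8 T and NK cells 4 of 10 genes had an unadjusted p under 0.05, among them Cd8a (3.23 against 4.54) and Prf1 (2.29 against 3.55), and again none passed after adjustment. The list medians were close for glycolysis and hypoxia (2.46 against 2.49) and for myeloid genes (4.88 against 5.03), and lay further apart for the cell cycle (0.94 against 1.38) and for CD8 T and NK cells (1.69 against 2.46), with no test of a list.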

How the data were processed

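Tregs of 11 samples were sequenced, and the comparison used the 5 libraries that the labels give as knockout. The authors used kallisto on mm10 to estimate counts from single-end reads, took them through sleuth 0.30.0, aggregated by gene symbol and deposited log2(n + 1) values. The version of kallisto, the annotation and any scaling of n were not given in the sources used here. Values were taken as deposited, with no count model, and all columns were used. Depth in reads is unknown, so the spread between libraries alone sets the precision. Nothing states that replicates were separate mice, so p-values may measure technical spread.

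Tumor and spleen were compared with limma 3.58.1 (R 4.3.3), with a trended prior variance from eBayes, over genes with a mean of at least 0.5, and a fit over all 11 libraries tested the difference between genotypes. A gene was called at a Benjamini-Hochberg adjusted p under 0.05. The fit of tumor against spleen was tried on simulated data with independent noise, few changed genes and no shift of scale. In the data 63.7% of genes were called, so the simulation says little about these calls. The fit over all 11 libraries was not tried on simulated data. Positions came from GENCODE and promoters from RefSeq, both on GRCm38. The strand setting of the libraries is unknown, so genes with an overlapping neighbor are uncertain.

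Members, gene lists and the rule for named genes were chosen with earlier results of these data known. Named were the Treg identity list, Bcl2l1, Bcl2, and in each other list the 2 called members with the largest difference and the 2 with the highest mean. Added were the 10 largest rises and falls without overlap, the 10 largest of each with a mean of at least 4 in the lower tissue, the 5 smallest p of the genotype difference, the 6 largest gaps between the tumor libraries at a mean of at least 3, and the genes beside the filter. Some genes that this rule takes are not reported here. Other genes named were chosen after their values were seen. Alternatives changed the scaling, pseudocount (0.1 or 5), filter (none or 2), variance model, correction, block and libraries. Equal totals without Gm12896 was chosen after seeing the data.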

Additional observations from a re-analysis of the deposited data

How the results depend on the processing

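Of 149 named genes, 56 kept direction and call under every alternative, 102 under all but Bonferroni correction and 123 with each library left out in turn. With 2 tumor libraries, leaving 1 out assumes that the other varies like the spleen libraries. The sort's purity, the scaling of n and the number of mice are unknown, tissue and cell mixture cannot be told apart in bulk samples, and values near 0 carry little information.

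The 8835 calls (4895 higher, 3940 lower) became 658 (585 and 73) with Bonferroni correction and 4400 (2730 and 1670) at a log2 difference of at least 1, by construction. Higher and lower calls were 2650 and 6933 with equal library totals, 2847 and 6809 with equal totals leaving out Gm12896, and 7589 and 1045 relative to the CD3 chain genes. With a library left out, calls lay between 7331 (without spleen replicate 3) and 9196 (without tumor replicate 1), higher calls between 4226 and 5160 and lower calls between 3105 and 4036. The median over all genes was 0.07 as deposited, -0.13 after median centring, -0.15 after quantile normalization, -0.46 with equal totals and 0.73 relative to the CD3 chains. For the difference between genotypes, 1 gene (Gm45837) passed with a pseudocount of 0.1 and 0 to 1 with a library left out. For these changes the cause was not tested.

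Spleens and tumors came from the same mice, but no source says that a replicate number marks a mouse. Same-numbered libraries correlated at -0.13, 0.0064 and -0.072 in control mice, and at 0.019 and 0.037 in knockout mice, where 2 tumor libraries give mirror images and cannot show or exclude pairing. With the replicate block there were 7232 calls (4211 higher, 3021 lower), 0 for the difference between genotypes, and Il2ra was at -0.0587.

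Directions reversed as follows. Relative to the CD3 chain genes, list medians were 0.402 for Treg identity, 0.0642 for B cells, 0.646 for conventional CD4 T cells, 0.562 for endothelial and 0.624 for epithelial genes, and differences were 0.362 for Foxp3, 0.168 for Cd4, 0.284 for Ikzf4, 0.427 for Il2rb, 0.377 for Lrrc32, 0.0191 for Trac, 0.0947 for Gimap4, 0.242 for Slc1a5, 0.14 for Cd79b, 0.0393 for Lgals4, 0.413 for Ddx3y, 0.166 for Eif2s3y and 0.143 for Gm15737. With equal totals, and then leaving out Gm12896, medians were -0.125 and -0.084 for chemokine receptors, -0.405 and -0.355 for ribosomal proteins and -0.205 and -0.163 for neutrophils, and differences were -0.586 and -0.537 for Il2ra, -0.11 and -0.0602 for Ctla4, -0.517 and -0.468 for Nrp1, -0.0882 and -0.0387 for Ccr7, -0.449 and -0.399 for Rplp1, -0.329 and -0.279 for Rplp0, -0.387 and -0.337 for Pcna, -0.582 and -0.532 for Tnfaip3, -0.206 and -0.156 for Srebf2 and -0.442 and -0.393 for Iqsec1, and Rpl30-ps9 was at -0.0394 with equal totals. After quantile normalization the ribosomal median was -0.412, and differences were -0.638 for Il2ra, -0.295 for Ctla4, -0.216 for Nrp1, -0.101 for Atp5a1, -0.0294 for Rpl10, -0.721 for Rplp1, -0.413 for Rplp0, -0.548 for Pcna, -0.729 for Tnfaip3 and -0.0974 for Iqsec1. Median centring gave -0.158 for Il2ra, -0.0969 for Nrp1, -0.0161 for Rplp1, -0.151 for Tnfaip3 and -0.0286 for Iqsec1. The conventional CD4 median was 0.0148 with a pseudocount of 5 and 1.21 with a filter at 2, the epithelial median 1.41 with that filter, and the endothelial median 0.591 with a pseudocount of 0.1. With a library left out, Il2ra lay between -0.133 and 0.228, Il2rb between -0.59 and 0.124, Lrrc32 between -0.62 and 0.0535, Nrp1 between -0.0142 and 0.234, Rpl30-ps9 between -1.52 and 2.63, Tnfaip3 between -0.139 and 0.249, Trav9-1 between -2.07 and 0.293, Trbv29 between -1.98 and 0.495, and the medians of Treg identity between -0.382 and 0.0817, conventional CD4 between -0.525 and 0.497 and epithelial genes between -0.155 and 0.0822.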

Other observations

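Variable segments of the T cell receptor differed between the 2 tumor libraries of Cd177-deleted mice. Among 73 such segments tested, grouped by symbol after their values were seen, 34 (46.6%) lay more than 1 log2 unit apart between tumor replicates 1 and 2, against 696 (5.02%) of all 13868 genes. Replicate 1 was the higher for 58 of the 73 segments (median of replicate 1 minus replicate 2 0.78), and for 20 of 20 T cell lineage genes (0.61). Such gaps were not limited to the segments. They were found for 6 of 10 genes of CD8 T and NK cells, 4 of 6 of conventional CD4 T cells and 3 of 7 of B cells. For fibroblasts it was 4 of 7, for the T cell lineage 3 of 20 and for myeloid cells 0 of 18. Whether the segments departed from other lymphocyte genes was not tested. Among genes with a mean of at least 3, the widest gaps between the tumor libraries were those of Rpl30-ps9 (3.81 and 7.96), Gm12191 (7.25 and 4.22), Trbv29 (5.30 and 2.82), Trav6n-6 (3.51 and 1.12), Trav9-1 (4.19 and 1.82) and Rgs16 (7.43 and 5.09). The first pair are processed pseudogenes that also spread widely in spleen, with Rpl30-ps9 at 6.64, 2.11 and 7.23 and Gm12191 at 0.10, 6.98 and 3.69. Rgs16, a regulator of G protein signalling, had 5.43, 4.72 and 4.8 in spleen, so only tumor replicate 1 stood above the spleen libraries by a wide margin. Of these 6 genes only Trav6n-6 was called (-1.82), and its call was lost without tumor replicate 2 (-0.62) and without any 1 of the spleen libraries.

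Red cell and platelet genes ran mostly the other way from the myeloid list. Of 10, 9 were called lower and 1 higher, with a median of -1.75, while the summed level of the list was 7.76 to 9.07 in spleen and 8.62 to 9.04 in tumor. Hba-a2, an alpha globin, had 6.92, 7.92 and 6.36 in spleen and 5.39 and 4.18 in tumor (difference -2.28, standard error 0.51), and lost its call without tumor replicate 2 (-1.67). The fall in control mice was -4.87, and the difference between genotypes of 2.59 did not pass (adjusted p = 0.9997). Pf4, platelet factor 4, had 2.70, 2.39 and 2.35 in spleen and 8.23 and 8.92 in tumor, a rise of 6.10. Hbb-bs (-2.50) and Hbb-bt (-2.57) fell.

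Of 6 genes tested in the list of conventional CD4 T cells, 2 rose, 2 fell and 2 were not called, shares near those of all genes (35.3% higher and 28.4% lower). All 6 were higher in tumor replicate 1 than in replicate 2, and the median was -0.53 without replicate 1 and 0.50 without replicate 2. Cd40lg, the CD40 ligand, had 5.28, 5.18 and 5.58 in spleen and 4.01 and 2.69 in tumor (difference -2.0, standard error 0.36). Ifng, the cytokine interferon gamma, had 4.61, 4.14 and 4.23 in spleen and 6.36 and 4.88 in tumor, a rise of 1.29 that lost its call without tumor replicate 1 (0.56), without spleen replicate 2 (1.20) or without spleen replicate 3 (1.24). Of 4 Y-linked genes, all above 5 in each spleen library, Kdm5d (-1.81), Uty (-1.31) and Eif2s3y (-0.49) fell as deposited and Ddx3y did not pass (-0.25). Relative to the CD3 chain genes Eif2s3y was at 0.17 and Ddx3y at 0.41.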
